A study of Mus musculus with 19 samples.

Results

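The genes described here charge transfer RNAs, make or import amino acids, move folate-bound carbon, or answer a shortage of amino acids. They are 43 genes chosen by symbol: 20 cytosolic aminoacyl-tRNA synthetases, 7 enzymes of amino acid synthesis, 5 folate one-carbon enzymes, 6 amino acid transporters, and 5 regulators linked to the transcription factor ATF4. Expression was measured by RNA sequencing in mouse regulatory T cells (Tregs), the T cells that restrain immune responses. The table of stimulated cells lists 42 of the 43 among 14290 genes with values (Trib3 was not analysed there), and the table of sorted cells lists all 43 among 14818. Values are RPKM, read counts scaled to gene length and library size, so levels of different genes can be set side by side within the stimulated table. The authors adjusted the sorted values further in a way that is not described. A ranking of genes there is by adjusted values and only approximate.

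All cells were YFP-positive Tregs of C57Bl/6 Foxp3-CRE-YFP mice, in which Cre is driven from Foxp3, the lineage factor of Tregs. Wild-type (WT) cells carry that allele alone, c-Rel-deficient cells carry also c-Rel F/F, and p65-deficient cells carry also p65 F/F. c-Rel (gene Rel) and p65 (gene Rela) are subunits of the transcription factor NF-kB. In the stimulated experiment, WT cells with water, WT cells with 500 ug/mL pentoxifylline dissolved in water, and c-Rel-deficient cells were cultured for 16 h on plate-bound anti-CD3 (5 ug/mL) with anti-CD28 (1 ug/mL) and IL-2 (10 ng/mL), with 2 libraries each. Pentoxifylline is a phosphodiesterase inhibitor used in medicine. Whether the c-Rel-deficient cultures received water is not given in the sources used here. In the sorted experiment, resting (rTreg, CD44 low) and activated (aTreg, CD44 high) Tregs were taken from spleen and lymph nodes of WT, p65-deficient and c-Rel-deficient mice and lysed at once, with 3 WT aTreg libraries and 2 in each other group. Ages are not given, and no label says that the libraries of a group came from separate mice, so p-values measure only the spread between these libraries, which may be technical.

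Aminoacyl-tRNA synthetases load each amino acid onto its tRNA, the step that feeds the ribosome. Activated T cells draw on serine, glycine and folate-bound carbon to make nucleotides, and on transporters such as SLC7A5 and SLC1A5 for leucine and glutamine. When uncharged tRNA or unfolded protein builds up, phosphorylation of the initiation factor eIF2 favours translation of ATF4. ATF4 with a C/EBP partner binds the C/EBP-ATF response element and switches on genes such as Asns, Psat1, Trib3, Chac1 and Ddit3 and several synthetases.

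That element shows in the DNA of a subset of these genes. The letters TGATGNAA were searched on both strands in RefSeq promoter windows (GRCm38.p6, 250 bases before and 50 after the start), as were the E-box CACGTG, bound by MYC among others, and the kB motif of NF-kB by its usual consensus. Windows were matched for 34 of the 43 genes, Mars by a synonym. TGATGNAA was found in 11 of the 34 (32.4%), against 3.97% of all 32851 windows. CACGTG was found in 5 of the 34 (14.7%) against 7.15%, and the kB motif in 4 of the 34 (11.8%) against 8.46%. The 34 genes had 36 windows, and a gene counted if any of its windows matched. The share of all is by window instead. The genes were chosen partly as ATF4 targets, so their excess of TGATGNAA is no separate evidence. A match is a run of letters and was not tested for binding. The stretches below run 5′ to 3′ on the strand of the gene, with the TGATGNAA match of either strand in capitals. They are shown because the genes carrying it did different things in the data: Got1 rose with pentoxifylline, Tars fell, Asns was high in aTregs, and Gars, Pycr1 and Chac1 were not called in that drug comparison. Slc7a11 was below the filter on low values.
Got1, chr19:43524668-43524738, minus strand: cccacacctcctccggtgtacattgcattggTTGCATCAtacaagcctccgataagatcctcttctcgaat
Asns, chr6:7693214-7693243, minus strand: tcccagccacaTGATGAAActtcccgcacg
Tars, chr15:11399666-11399729, minus strand: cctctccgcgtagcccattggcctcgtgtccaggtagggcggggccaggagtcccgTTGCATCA
Gars, chr6:55037930-55038000, plus strand: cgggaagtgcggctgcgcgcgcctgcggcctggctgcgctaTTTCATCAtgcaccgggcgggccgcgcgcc
Pycr1, chr11:120643812-120643882, minus strand: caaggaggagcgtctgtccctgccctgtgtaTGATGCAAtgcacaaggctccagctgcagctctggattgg
Slc7a11, chr3:50443640-50443710, minus strand: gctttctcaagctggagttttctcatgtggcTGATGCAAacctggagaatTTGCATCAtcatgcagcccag
Chac1, chr2:119351018-119351088, plus strand: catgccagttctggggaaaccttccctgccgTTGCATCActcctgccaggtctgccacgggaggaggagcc

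Slc7a11 holds a pair of matches, 66 and 47 bases before its start, in opposite orientations. Aars is a further carrier, and Trib3, Yars and Iars hold their match just after the start. All starts here are those of RefSeq, which can differ from GENCODE. By GENCODE all 30 bases of the Asns stretch lie in an exon of Asns, and the Shmt1 stretch below lies inside the Shmt1 gene. The genes with the largest falls under pentoxifylline, Shmt1 and Mthfd1, hold no TGATGNAA in the window; Mthfd1 holds the kB motif on both strands, at 51 and 50 bases before its start. Their last 71 bases before the RefSeq start are given for contrast, all in lower case because there is no TGATGNAA match.
Shmt1, chr11:60811266-60811336, minus strand: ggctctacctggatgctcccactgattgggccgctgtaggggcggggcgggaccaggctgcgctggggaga
Mthfd1, chr12:76255161-76255231, plus strand: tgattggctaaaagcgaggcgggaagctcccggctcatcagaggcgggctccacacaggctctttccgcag

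The labels were checked against the targeted genes and cell markers. Rel stood at 55.1 and 55.8 RPKM in the water libraries, 93.5 and 79.9 with pentoxifylline, and 2.44 and 24.96 in the libraries labelled c-Rel-deficient, so the second of these held a large part of the WT level. In the sorted set Rel ranged from 1.39 to 5.37 RPKM in the 4 c-Rel-deficient libraries and from 10.9 to 22.0 in the 9 others. Rela was 46.8 to 69.4 RPKM in the 4 p65-deficient libraries against 62.3 to 71.6 in the others, so its level did not check that label. Foxp3 was detected in every library, at 28.1 to 290 RPKM. Cd44, a gene of the sort, was 49.4, 45.2 and 26.4 RPKM in WT aTregs numbered 1, 2 and 3, 34.5 and 32.8 in p65-deficient aTregs, 61.2 and 32.9 in c-Rel-deficient aTregs numbered 2 and 3, and 6.52 to 19.4 in the rTregs. Results that rest on the aTregs numbered 3 are given without them as well. Relative depth in the stimulated set, from the step that 1 read makes in low RPKM values, was 0.681 to 1 of the deepest library, while depth in the sorted set is unknown. Bulk RNA cannot tell fewer cells of a type from less RNA per cell.

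Most of these genes were lower in pentoxifylline-treated than in water-treated stimulated WT Tregs, and 4 were higher, among them Atf4 and Ddit3. Of the 41 genes that reached 1 RPKM in at least 2 stimulated libraries, 24 were lower and 4 higher than with water at a limma adjusted p under 0.05, which is what "called" means below. Over all 9945 genes tested, 23.9% were called lower and 19.6% higher. The median log2 difference was -0.67 over the 41 genes and 0.00 over all genes, on the log2(RPKM + 0.5) scale used for every difference here. By the authors' deposited table, after adjustment of its p-values, 20 of 42 genes were lower and 8 higher, against 12.9% and 9.77% of its rows. Both drug libraries lay above both water libraries in 8 of the 41 genes and below them in 28, against 37.2% and 38.3% of all genes. Both sources called 24 of the genes in 1 direction, and 19 of the 28 limma calls held under every alternative setting tried. With every library kept but no filter on low values, the calls of Atf4, Lars, Qars, Slc7a1 and Slc7a5 were lost.

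**Figure D1:**
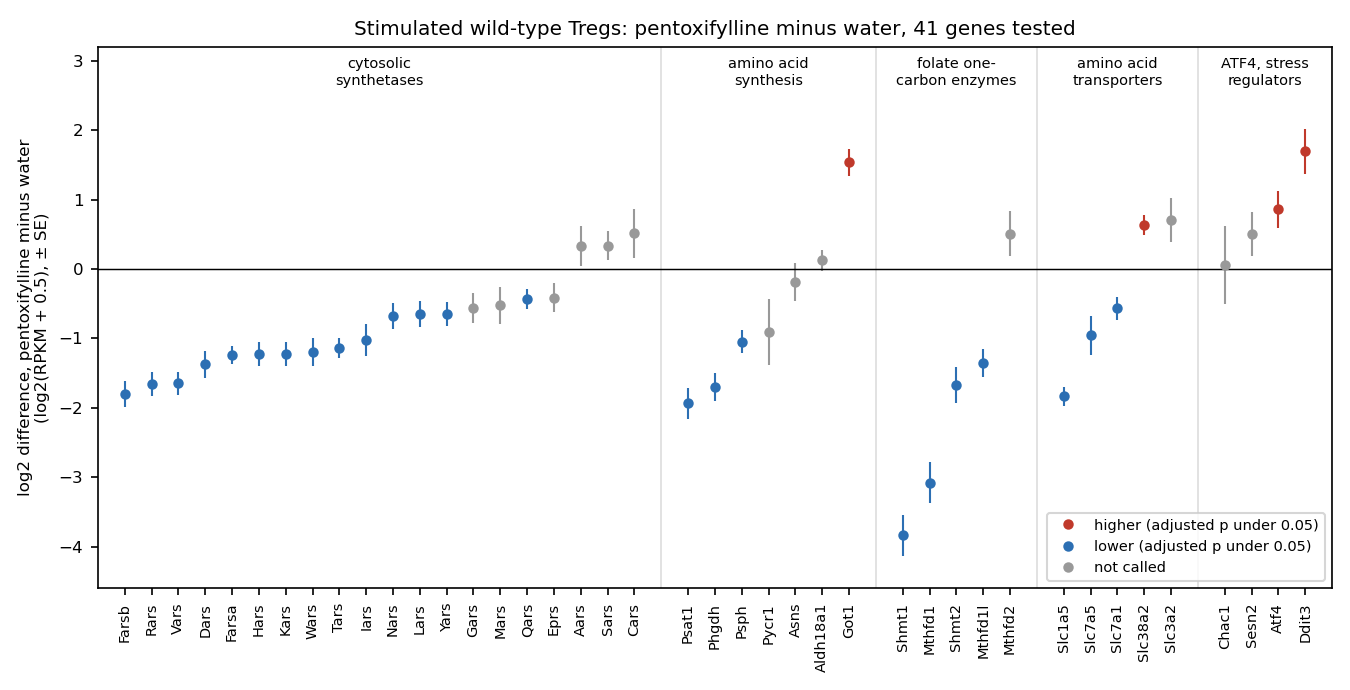
Log2 difference between pentoxifylline-treated and water-treated stimulated WT Tregs for the 41 genes tested (points, log2(RPKM + 0.5), y axis) with the standard error from limma (bars), grouped by role along the x axis. Blue points were called lower and red points higher at an adjusted p under 0.05, and grey points were not called; 24 points are blue and 4 are red, and Shmt1 and Mthfd1 lie lowest.

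Of the 20 synthetases 14 fell and 0 rose, with a median log2 difference of -0.85. Farsb, the beta subunit of phenylalanyl-tRNA synthetase, was at 51.2 and 67.6 RPKM with water and 14.4 and 18.8 with the drug, a log2 difference of -1.81 ± 0.19 (SE; limma adjusted p = 0.000798). Its partner subunit Farsa went from 55.4 and 59.7 to 25 and 23.2 RPKM (log2 difference -1.24 ± 0.13). The arginine enzyme Rars went from 63.6 and 83.2 to 20.9 and 24.7 RPKM (-1.66 ± 0.17), and the valine enzyme Vars from 76.8 and 91.3 to 27.9 and 24.9 RPKM (-1.65 ± 0.17). In these 4 genes both drug libraries lay below both water libraries. Dars, the aspartate enzyme and the most abundant of the 42 with water (206 and 238 RPKM), fell to 72.3 and 100 RPKM (-1.37 ± 0.19). The others called lower were Hars, Kars, Wars, Tars, Iars, Nars, Lars, Yars and Qars, with log2 differences from -1.22 to -0.43. Calls of Iars, Nars, Lars, Yars and Qars were lost when 1 library was left out, at adjusted p from 0.0517 to 0.189.

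The 6 synthetases not called spanned the range from Gars (log2 difference -0.56) and Mars (-0.52) through Eprs (-0.41) to Aars (0.33), Sars (0.34) and Cars (0.51). Aars, the alanine enzyme, was at 62.0 and 67.2 RPKM with water and 110 and 60.1 with the drug, so the drug libraries lay on both sides of the controls. Of its exon bases 14.3% are shared with Exosc6 on the same strand. Cars, the cysteine enzyme, was at 26.4 and 24.7 RPKM with water and 52.9 and 25.4 with the drug, so drug replicate 2 lay between the controls. The authors' deposited table called both higher (log2 fold changes 0.60 and 0.82). Without drug replicate 2, limma called both higher too, at 0.77 and 1.04. Of the 5 synthetases with a TGATGNAA match in the window, Tars, Iars and Yars were called lower and Gars and Aars were not called.

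RNA of the enzymes for each of the 3 steps of serine synthesis fell. Phgdh, which commits a glycolytic intermediate to serine, stood at 59.2 and 81.2 RPKM with water and 21.9 and 20.1 with pentoxifylline (-1.70 ± 0.20, limma adjusted p = 0.0011). Psat1, the next enzyme, stood at 78.5 and 118 RPKM with water and 22.0 and 27.8 with the drug (-1.94 ± 0.22, adjusted p = 0.00107). Psph, the last step, went from 26.6 and 31.2 to 12.4 and 15.1 RPKM (-1.05 ± 0.17). The drug libraries were below the water libraries in all 3 genes. Part of Psph lies under exons of a neighbour on the opposite strand (10.4% of its exon bases), whose reads cannot be told apart without strand.

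Got1, the cytosolic aspartate aminotransferase (chr19:43499752-43524605, minus strand), moved the other way. It was at 101 and 104 RPKM with water and rose to 348 and 256 with the drug, a difference of 1.54 ± 0.19 (limma adjusted p = 0.00135). Asns, which makes asparagine (chr6:7675169-7693254, minus strand), was at 18.6 and 21.6 RPKM with water and 24.0 and 12.8 with the drug, so the drug libraries enclosed the controls. Without drug replicate 1 it was called lower, at -0.62. The proline enzymes Aldh18a1 (0.13) and Pycr1 (-0.91, at or under 1.05 RPKM in these groups) were not called.

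Of the 5 folate enzymes 4 fell, and the cytosolic pair had the largest falls of the 41 genes. Shmt1, cytosolic serine hydroxymethyltransferase (chr11:60788104-60811718, minus strand), went from 47.4 and 66.6 RPKM to 2.37 and 4.97, a log2 difference of -3.84 ± 0.30 (limma adjusted p = 0.000524). Mthfd1, the trifunctional cytosolic enzyme that carries folate carbon between oxidation states (chr12:76255298-76319803, plus strand), went from 53.5 and 73.6 to 4.98 and 9.72 RPKM (-3.08 ± 0.29, adjusted p = 0.000687). Among the mitochondrial enzymes, Shmt2 went from 111 and 151 to 45.4 and 35.8 RPKM (-1.67 ± 0.25) and Mthfd1l from 43.4 and 54.2 to 15.3 and 22.7 RPKM (-1.36 ± 0.21). The mitochondrial Mthfd2 stood apart from them, at 59.1 and 67.8 RPKM with water and 119 and 68.7 with the drug (0.51 ± 0.33, not called by limma), and the authors' deposited table called it higher.

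Among transporters, Slc1a5, a carrier of glutamine and other neutral amino acids (chr7:16781340-16798274, plus strand), fell from 153 and 145 RPKM to 39.6 and 43.4 (-1.84 ± 0.14, limma adjusted p = 0.000524). Slc7a5, the light chain of the leucine carrier, went from 86.8 and 114 to 64.4 and 40.5 RPKM (-0.95 ± 0.28, adjusted p = 0.0282), and the call was lost without water replicate 2 or drug replicate 2 (adjusted p 0.151 and 0.134). Its heavy chain Slc3a2 did not go with it: 99.3 and 111 RPKM with water, 246 and 121 with the drug (0.71 ± 0.32, not called, but called higher in the authors' deposited table). Slc7a1, a carrier of cationic amino acids, was called lower at -0.57 and lost the call without water replicate 2 or drug replicate 2 (adjusted p 0.159 and 0.141). Slc38a2, a sodium-coupled neutral amino acid carrier, rose from 61.7 and 58.6 to 98.8 and 88.3 RPKM (0.63 ± 0.14, adjusted p = 0.011), a call lost without water replicate 2 or drug replicate 1 (adjusted p 0.0583 and 0.0682). Slc7a11, the cystine carrier, was 0.0250 to 0.110 RPKM in these 4 libraries and was not tested.

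Of the regulators, Ddit3, which encodes the stress factor CHOP, rose most. It was at 36.4 and 32.9 RPKM with water and 164 and 78.5 with pentoxifylline (1.70 ± 0.33, limma adjusted p = 0.00598). Atf4 itself was at 187 and 194 RPKM with water and 463 and 259 with the drug (0.86 ± 0.27, adjusted p = 0.0366). With no filter on low values Atf4 was not called. Its call was lost without water replicate 1, water replicate 2 or drug replicate 1 (adjusted p 0.11, 0.116 and 0.182), the difference being 0.44 without drug replicate 1. Sesn2, a leucine sensor upstream of mTORC1, was at 7.19 and 6.19 RPKM against 12.1 and 7.75, and Chac1, a glutathione-degrading enzyme, at 1.86 and 1.84 against 2.86 and 1.28; neither was called.

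**Figure D2:**
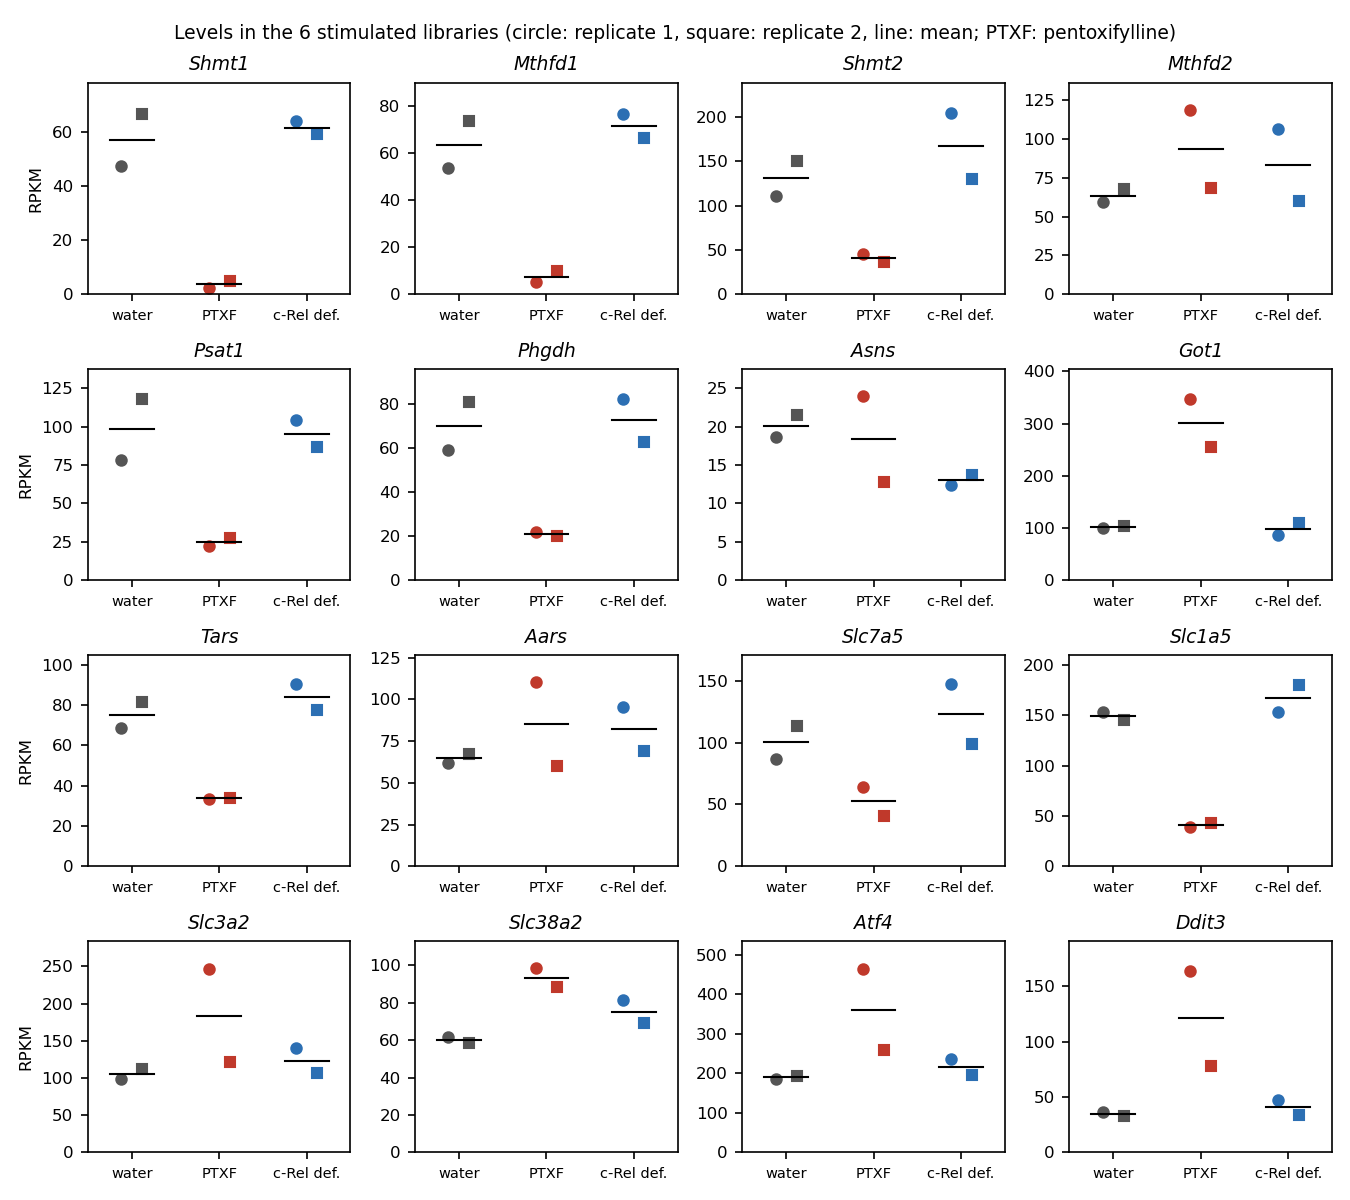
RPKM (y axis, from 0) of 16 genes in the 6 stimulated libraries: WT with water, WT with pentoxifylline (PTXF) and c-Rel-deficient, with circles for replicate 1, squares for replicate 2 and lines for group means. In the lowered genes such as Shmt1, Mthfd1, Psat1, Phgdh and Slc1a5 both drug points sit below the controls, whereas Atf4, Ddit3, Slc3a2, Mthfd2, Aars and Asns separate the drug replicates, with replicate 1 higher.

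The drug replicates differed from each other in several genes, chosen here after their values were seen. Replicate 1 exceeded replicate 2 in Atf4 (463 against 259 RPKM), Ddit3 (164 against 78.5), Slc3a2 (246 against 121), Mthfd2 (119 against 68.7), Asns (24.0 against 12.8), Cars (52.9 against 25.4), Aars (110 against 60.1) and Chac1 (2.86 against 1.28). In Shmt1, Mthfd1, Psat1, Farsb and Dars replicate 2 was the higher of the pair. Over the 41 genes, replicate 1 was higher in 26 with the drug, in 7 with water and in 37 without c-Rel, while over all genes tested that share was 49.1%, 42.9% and 54.5%.

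Other genes of these pathways, outside the 43, were counted in the same fit, in which 19.6% of all genes were called higher and 23.9% lower. Of 17 mitochondrial synthetases 9 were called lower and 0 higher, led by Rars2 (5.59 ± 0.88 against 17.4 ± 1.89 RPKM, SD, n = 2) and Sars2 (3.13 ± 0.33 against 10.2 ± 0.88). The scaffold proteins of the multisynthetase complex Eef1e1 (-2.02) and Aimp2 (-1.64) fell, and Aimp1 (-0.39) was not called. Nucleotide and folate enzymes fell with Shmt1 and Mthfd1: Gart went to 12.9 ± 4.05 from 89.2 ± 21.6 RPKM, Atic to 24.9 ± 7.63 from 98.0 ± 23.2 and Tyms to 1.5 ± 0.28 from 9.10 ± 2.41. In that list of other enzymes 7 of 16 tested were called lower and 2 higher. Bcat1, which starts breakdown of branched-chain amino acids, fell by 3.07 on the log2 scale. Among other transporters 5 of 10 were lower and 0 higher.

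Of 15 integrated stress response genes tested 5 were called higher and 3 lower, against 19.6% and 23.9% of all genes. Gadd45a (32.1 ± 1.37 against 5.97 ± 1.43 RPKM), the eIF2 phosphatase subunit Ppp1r15a (80.1 ± 28.7 against 27.5 ± 0.44), the ATF4 partner Cebpg (30.8 ± 8.50 against 14.9 ± 1.5), Atf5, and Eif2ak3, which encodes the eIF2 kinase PERK, rose. Atf3 (5.58 ± 0.98 against 18.5 ± 8.37 RPKM), the chaperone Hspa5 (199 ± 29.3 against 383 ± 79.8) and Eif2s1, the phosphorylated subunit of eIF2, fell. Of 7 genes of amino acid sensing pathways Sesn1, Sesn3, Rragc and Rptor were called higher and Rraga and Gcn1l1 lower. Myc, an activator of many growth genes, was at 36.3 ± 15.4 RPKM with the drug and 188 ± 43.6 with water (-2.40, limma adjusted p = 0.00141). The summed level of 8 B cell markers also differed with the drug, at 40.5 to 52.3 RPKM with water and 12.5 to 19.5 with pentoxifylline (5 of the 8 reached a mean of 1 RPKM in each group, H2-Aa the highest). It was 8.69 to 8.93 RPKM in the stimulated c-Rel-deficient libraries. The sum of 6 Treg markers was 2225 to 2332 RPKM with water and 1595 to 1957 with the drug, and that of 6 stress and dissociation genes 191 to 210 and 138 to 151. The part of these sums in the drug results was not tested.

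In stimulated Tregs without c-Rel none of these genes passed the test. Of 41 genes 0 were called by limma, 0 had an unadjusted p under 0.05, and the authors' deposited table called 0 of 42. Over all genes limma called 0 of 9945 as well (0.0% in each direction; 791 had an unadjusted p under 0.05), and 0.482% and 1.66% of rows were called higher and lower in the authors' deposited table. The values leaned upward: 36 of the 41 differences, and 20 of 20 synthetases, were above 0, with a median of 0.21 against 0.06 over all genes. Between the libraries numbered 1, Shmt2 differed by 0.88, Mthfd2 by 0.85 and Slc7a5 by 0.76, whereas between those numbered 2 the differences were -0.21, -0.18 and -0.20. The synthetases ranged from 0.24 to 0.71 between the libraries numbered 1 and from -0.22 to 0.04 between those numbered 2. No label says that the numbers pair the cultures, so these differences also hold the spread within each group. Replicate 1 was the higher library in 7 of the 41 genes with water and in 37 without c-Rel. The c-Rel-deficient library numbered 2 is the one with Rel at 24.96 RPKM, and the part of that in the difference was not tested. The B cell marker sum was 8.69 to 8.93 RPKM without c-Rel and 40.5 to 52.3 with water, and its part was not tested either.

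**Figure D3:**
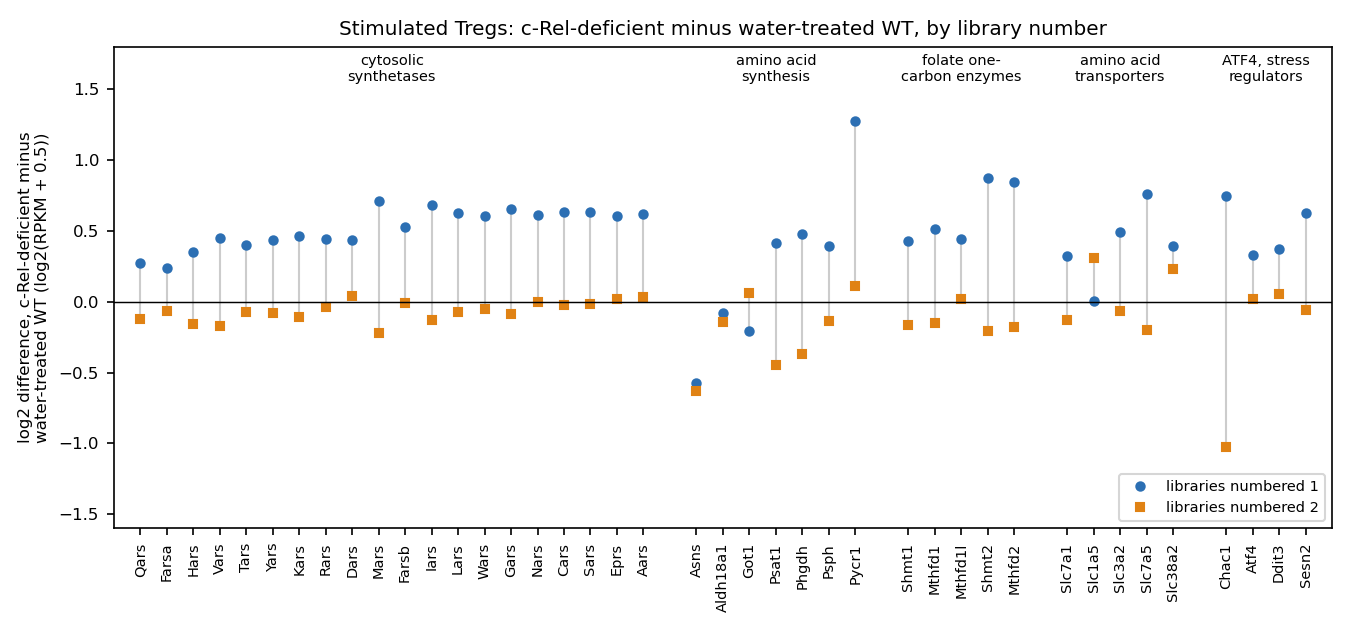
Log2 difference between c-Rel-deficient and water-treated WT stimulated Tregs (y axis, log2(RPKM + 0.5)) for 41 genes by role. Libraries numbered 1 (blue circles) and 2 (orange squares) are drawn apart, and no label says that the numbers pair the cultures. Synthetases lie above 0 between the libraries numbered 1 and close to 0 between those numbered 2, and Asns is below 0 in both.

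The differences of Asns, Chac1, Aldh18a1, Got1 and Psat1 were below 0. Asns was at 12.4 and 13.8 RPKM without c-Rel against 18.6 and 21.6 with water, below both controls, a difference of -0.60 ± 0.27 (unadjusted p = 0.0588, limma adjusted p = 0.645). Psat1 (105 and 86.4 RPKM without c-Rel), Phgdh (82.7 and 62.9), Got1 (87.4 and 109), Shmt1 (64.0 and 59.3) and Mthfd1 (76.7 and 66.3) overlapped the water libraries. The level of Atf4 was 236 and 197 RPKM without c-Rel, Ddit3 47.3 and 34.2, Sesn2 11.4 and 5.93, Chac1 3.47 and 0.649, Slc3a2 140 and 106, Mthfd2 107 and 59.9, Shmt2 205 and 131, Slc7a5 147 and 99.0, and Slc7a11 0.195 and 0.0290. Each of these except Atf4 overlapped the water libraries.

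Set directly against c-Rel-deficient cells, pentoxifylline-treated WT cells had 28 of 41 genes called lower and 2 higher, Got1 and Ddit3, with a median of -0.98; over all genes 26.8% were lower and 21.6% higher. The 5 largest falls were Shmt1 (-3.97 ± 0.30), Mthfd1 (-3.26 ± 0.29), Farsb (-2.06 ± 0.19), Shmt2 (-2.01 ± 0.25) and Slc1a5 (-1.99 ± 0.14). Of the synthetases 17 of 20 were lower. Got1 was 302 ± 65.4 RPKM with the drug and 98.1 ± 15.03 without c-Rel. Aars, Sars and Cars, Asns, Aldh18a1, Mthfd2, Slc3a2, Slc38a2, Atf4, Sesn2 and Chac1 were not called. This comparison shares its drug libraries with the one against water, so the calls are not separate evidence.

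Levels in cells taken straight from mice come from the other table. The tables were normalized separately and the authors adjusted the sorted values, so levels across them are set side by side without a test. Asns stood at 0.394 ± 0.28 RPKM in WT rTregs (SD, n = 2), 2.88 ± 1.02 in WT aTregs (n = 3) and 20.1 ± 2.07 in stimulated WT cells with water (n = 2). Shmt1 stood at 7.94 ± 0.72, 8.19 ± 0.26 and 57.0 ± 13.6 RPKM in that order, and Psat1 at 21.3 ± 5.64, 30.6 ± 0.16 and 98.2 ± 27.9. By these adjusted values Slc1a5 ranked first of the 43 in WT rTregs (93.8 ± 5.56 RPKM), with Atf4 second and within the SD (92.5 ± 6.44). In WT aTregs Slc1a5 also ranked first (107 ± 10.96 RPKM) and Atf4 second. Slc7a11 and Chac1 were at or under 0.0993 RPKM in all 13 sorted libraries and Pycr1 at or under 0.266, and these 3 were not tested. Asns passed the filter only through the aTregs, and so had to differ between subsets.

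WT aTregs differed from WT rTregs in 4 of the 40 genes tested: Asns and Sesn2 were higher, Trib3 and Cars lower. Over all 10656 genes 7.54% were called higher and 4.68% lower, so 2 of 40 in each direction is near the share of all genes. The authors' deposited table called Asns and Sesn2 higher and Trib3 lower of 43, against 7.99% and 3.25% of its rows. Asns was 0.590 and 0.199 RPKM in the WT rTregs and 3.49, 3.44 and 1.71 in the WT aTregs numbered 1 to 3 (1.90 ± 0.28). Because the filter on low values let Asns in through the aTregs alone, its p is given from the fit with no filter (limma adjusted p = 0.0101); with only the groups compared the call was lost (adjusted p = 0.051). Every aTreg library lay above every rTreg library, and number 3, with Cd44 at 26.4 RPKM, lay nearest to them. Without it and the c-Rel-deficient library numbered 3 the difference was 2.18.

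Sesn2 was 1.34 and 1.51 RPKM in WT rTregs and 3.08, 3.14 and 1.97 in WT aTregs (0.73 ± 0.19, limma adjusted p = 0.0404). Trib3, a pseudokinase that is both a target and a brake of ATF4, was 3.67 and 3.29 RPKM in rTregs and 0.596, 1.33 and 1.97 in aTregs (-1.22 ± 0.34, adjusted p = 0.0446). Cars was 16.0 and 16.5 RPKM in rTregs and 8.13, 10.2 and 12.6 in aTregs (-0.65 ± 0.15, adjusted p = 0.0295). In each of the 4 genes aTreg number 3 was the library closest to the rTregs. With every WT library kept, the calls of Sesn2 and Trib3 were lost with no filter on low values or a filter of 3 RPKM. That of Trib3 was lost with an offset of 0.1, and those of Sesn2, Trib3 and Cars with only the groups compared. The calls of Sesn2, Trib3 and Cars were lost without WT rTreg 1, WT aTreg 1 or WT aTreg 2 (adjusted p 0.0824 to 0.152), and that of Trib3 also without WT rTreg 2 (0.061). Without WT aTreg 3, 9 genes were called, 2 higher and 7 lower. The added ones were Farsa, Nars, Mars, Sars and Shmt2 (log2 differences -0.60 to -0.35). Over all 10656 genes that setting called 1221 higher and 1170 lower, against 803 and 499 in the main fit, so calls rose over all genes as well. Without WT rTreg 2, which left 1 library in that group, calls also rose in these genes and over all genes.

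The other regulators and enzymes lay close together. Atf4 was 97.1 and 88.0 RPKM in WT rTregs and 67.4, 72.2 and 67.0 in WT aTregs (-0.42, limma adjusted p = 0.054). Ddit3 was 32.5 and 23.2 against 19.9, 17.5 and 20.5 RPKM (-0.50, adjusted p = 0.0667). Psat1 was 25.3 and 17.3 against 30.8, 30.6 and 30.5 RPKM (0.54, adjusted p = 0.0627). The aTreg and rTreg libraries did not overlap in these 3 genes, but none passed. The share of all genes without overlap was not counted in the sorted set. In the drug comparison it was 37.2% higher and 38.3% lower. Lack of overlap in the sorted set is thus a description and no evidence of a difference. Phgdh was 45.7 and 32.7 against 36.7, 37.9 and 39.4 RPKM, Shmt2 39.1 and 39.2 against 28.9, 30.3 and 38.8, Mthfd2 44.0 and 34.8 against 31.9, 35.9 and 36.6, Slc3a2 56.3 and 42.1 against 40.6, 44.6 and 42.4, and Slc7a5 12.2 and 22.2 against 16.6, 13.8 and 20.9. Of these genes Shmt2 alone had every aTreg below every rTreg. By role, 16 of 20 synthetases, 4 of 5 folate enzymes and 3 of 5 transporters had differences below 0, and the median over the 40 genes was -0.14 against -0.06 over all genes.

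**Figure D4:**
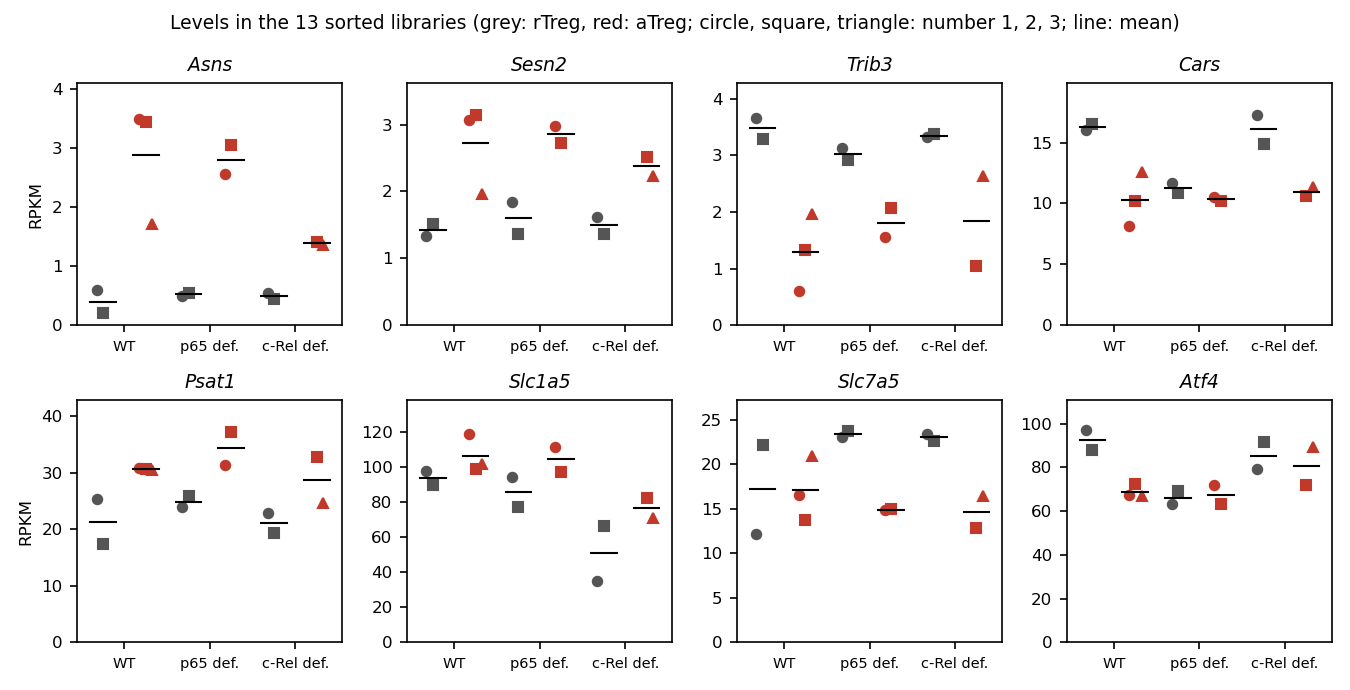
RPKM (y axis) of 8 genes in the 13 sorted libraries of WT, p65-deficient and c-Rel-deficient mice, rTregs in grey and aTregs in red, with circles, squares and triangles for libraries numbered 1, 2 and 3 and lines for group means. Asns is higher in all 7 aTreg libraries than in all 6 rTreg libraries, and the c-Rel-deficient aTregs (1.41 and 1.36 RPKM) lie lowest of the aTregs.

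Asns was higher in the aTregs than in the rTregs of each genotype, in every library. In p65-deficient cells Asns was 0.496 and 0.550 RPKM in rTregs and 2.56 and 3.04 in aTregs (1.69 ± 0.31, limma adjusted p = 0.0278 with no filter on low values). With the filter it was the only one of 40 genes called there, a count that rests on a gene the aTregs alone let in, with 2.79% of all genes called higher and 0.385% lower. That call was lost with any of the 4 p65-deficient libraries left out, the adjusted p reaching 0.136. In c-Rel-deficient cells Asns was 0.551 and 0.436 RPKM in rTregs and 1.41 and 1.36 in aTregs (0.93 ± 0.31, limma adjusted p = 0.220 with no filter), without overlap. There 0 of 40 genes were called and 8 had an unadjusted p under 0.05; over all genes 0 were called (0.0%) and 1494 had an unadjusted p under 0.05. Sesn2 was 1.85 and 1.37 against 2.98 and 2.73 RPKM in p65-deficient cells and 1.62 and 1.37 against 2.52 and 2.23 in c-Rel-deficient cells, and Trib3 3.13 and 2.92 against 1.55 and 2.07, and 3.33 and 3.37 against 1.05 and 2.64. All aTreg values of Sesn2 were above, and all of Trib3 below, the rTreg values of their genotype, and in these groups neither was called. The test of a difference between genotypes called 0 genes.

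Between genotypes 0 of the 40 genes were called in either subset, as were 0 of all 10656 genes (0.0% in each direction by limma, with 365 to 775 genes at an unadjusted p under 0.05). The authors' deposited table called 0 of 43 in these 4 comparisons. Of its rows, 0.0337% were called higher and 0.0% lower in rTregs without p65, 0.0135% in each direction in rTregs without c-Rel, 0.0674% higher and 0.128% lower in aTregs without p65, and 0.398% and 0.121% in aTregs without c-Rel. In aTregs without c-Rel, Asns had the smallest p of the 40 genes: 1.41 and 1.36 RPKM against 3.49, 3.44 and 1.71 in WT, below every WT library (-0.79 ± 0.28, unadjusted p = 0.0171, limma adjusted p = 0.553). Without both libraries numbered 3 the difference was -1.06 (adjusted p = 0.621). The aTreg to rTreg difference of Asns was smaller without c-Rel than in WT by 0.98 (interaction unadjusted p = 0.0393, adjusted p = 0.898), and 0 genes passed that test (497 of all genes had an unadjusted p under 0.05). The c-Rel-deficient aTregs also differed in markers of other lymphocytes: the sum of 8 B cell markers was 65.9 to 117 RPKM against 15.5 to 36.3 in WT aTregs, and that of 5 NK and cytotoxic markers 18.3 to 51.7 against 2.98 to 13.1, and their part in the Asns value was not tested.

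Slc1a5 had the smallest p of the 40 genes in rTregs without c-Rel, and did not pass. It was 35.2 and 66.4 RPKM there and 97.8 and 89.9 in WT rTregs (-0.95 ± 0.25, unadjusted p = 0.00309, limma adjusted p = 0.627), and in aTregs 82.7 and 70.9 against 119, 99.0 and 102 (-0.47 ± 0.23, adjusted p = 0.78). The c-Rel-deficient libraries lay below WT in both subsets. In stimulated cells the order was not the same: 154 and 180 RPKM without c-Rel against 153 and 145 with water.

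In rTregs without p65, Atf4 was 63.1 and 69.1 RPKM against 97.1 and 88.0 in WT (-0.48 ± 0.14, unadjusted p = 0.00566, limma adjusted p = 0.606), and Cars was 11.6 and 10.8 against 16.0 and 16.5 (-0.52 ± 0.17, adjusted p = 0.648). The libraries did not overlap, but neither gene passed. In aTregs Atf4 was 71.8 and 63.1 RPKM without p65 against 67.4, 72.2 and 67.0 in WT, which overlap. Wars, the tryptophan enzyme known as an interferon-inducible synthetase, was 43.5 and 53.6 RPKM in p65-deficient aTregs and 30.5, 33.4 and 44.7 in WT (0.43, limma adjusted p = 0.998), overlapping, and 52.1 and 51.2 against 40.3 and 37.7 in rTregs (0.40, adjusted p = 0.749), without overlap. The p65 interaction called 0 of 40 genes, with 237 of all genes at an unadjusted p under 0.05.

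None of the other genes followed in every library passed between genotypes. In p65-deficient rTregs and aTregs in turn, Psat1 was 23.9, 25.8, 31.4 and 37.2 RPKM, Phgdh 37.8, 37.0, 32.2 and 42.8, Shmt2 36.7, 37.6, 32.2 and 32.9, and Mthfd2 38.4, 42.9, 39.9 and 41.4. In c-Rel-deficient rTregs and aTregs Psat1 was 22.9, 19.4, 32.8 and 24.6 RPKM, Phgdh 38.1, 33.3, 37.2 and 35.8, Shmt2 38.5, 35.3, 31.6 and 33.1, and Mthfd2 37.8, 36.5, 39.7 and 40.4. Psat1 was thus higher in aTregs than in rTregs of all 3 genotypes without overlap, but passed in none, so this is a description only. Slc7a5 was 23.1 and 23.7 RPKM in p65-deficient and 23.5 and 22.6 in c-Rel-deficient rTregs, against 14.9 and 15, and 12.9 and 16.5, in their aTregs, without overlap in either genotype, while the WT rTregs (12.2 and 22.2) enclosed the WT aTregs. Slc3a2 was 39.7 to 47.0, Ddit3 17.0 to 28.4 and Atf4 63.1 to 91.5 RPKM in these 8 libraries.

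**Figure D5:**
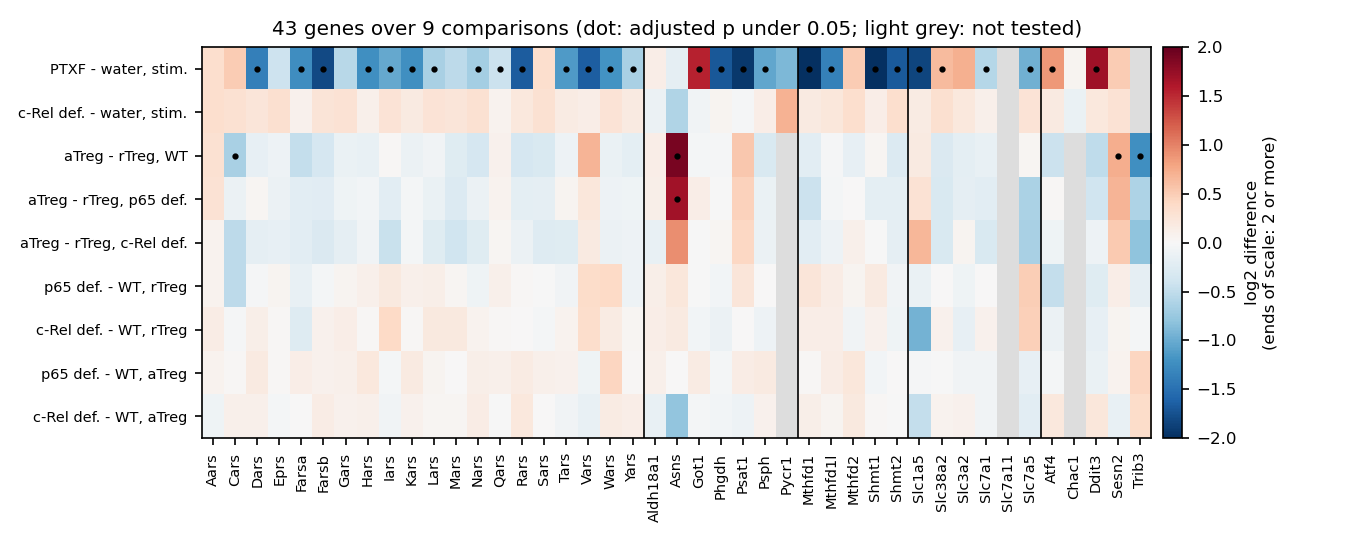
Log2 differences (color, log2(RPKM + 0.5), scale ending at 2 in each direction) of the 43 genes (columns, grouped by role) in 9 comparisons (rows), with a dot where the limma adjusted p was under 0.05 and grey where a gene was not tested. Dots number 28 in the pentoxifylline row, 4 in WT aTregs against rTregs, 1 in p65-deficient aTregs against rTregs and 0 in the other rows; rows 1 and 2 share the water libraries, and rows with a common genotype or subset share libraries too.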

How the data were processed

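RNA was sequenced from Tregs in 19 libraries, 6 stimulated and 13 sorted. The submitters' processing notes list the aligner STAR, the build mm10 and DESeq2 1.10.1, with no role or order. The authors deposited 1 table of RPKM per set, in which decimal commas were read as points, and beside them, per the file headers, p-values and log2 fold changes for their own comparisons. The sorted values as deposited are a score, RPKM that the authors adjusted further in a way the headers do not describe; 2.53% of them are below 0 (lowest -30.7), and such values were set to 0. In 20 and 21 lines a date stands where the gene symbol belongs and library values are missing; these lines were dropped.

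Differences of group means of log2(RPKM + 0.5) were tested in limma 3.58.1 (R 4.3.3, statmod 1.5.0; lmFit, contrasts, eBayes with trend, two-sided) within each set, over genes reaching 1 RPKM in 2 libraries, with Benjamini-Hochberg adjustment over all tested genes and a threshold of 0.05. The offset of 0.5 shrinks the differences of low genes. The test was run on simulated data with the same spread for every gene and shifts in well-expressed genes only. That check does not bear on low genes or on replicates that differ. The authors' deposited p-values were adjusted the same way over each table.

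Relative depth of the stimulated libraries was read from low values: 95.3% of 2282 genes with a mean under 0.1 RPKM came out as whole reads within 0.02. Promoter windows came from RefSeq and locations and exons from GENCODE vM21, both on GRCm38, the assembly that mm10 names. Of the 43 genes 11 share some exon bases with another gene, at least 10% of them in Aars and Psph. Aars shares its bases mostly with Exosc6 on the same strand, which counting by strand would not separate. Whether counting used strand is not given in the sources used here.

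The genes, their roles, the pathway and marker lists and the naming rule were chosen with earlier results of these data known. Named in every library were Asns, Psat1, Phgdh, Mthfd2, Shmt2, Slc7a5, Slc3a2, Slc7a11, Atf4, Ddit3, Trib3, Chac1 and Sesn2, and in each comparison up to 5 called genes with the largest rise and up to 5 with the largest fall; Asns, Slc1a5, Atf4, Cars and Wars in uncalled comparisons, the drug-comparison genes beyond these, and the printed promoters were picked after their values were seen. Alternatives were other offsets, filters and scaling, robust fitting, only the groups compared, the replicate number as a block, and each library left out. Software: matplotlib 3.10.9 for figures, and scipy 1.17.1, numpy 2.4.6 and pandas 2.3.3 under Python 3.11.15.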

Additional observations from a re-analysis of the deposited data

How the results depend on the processing

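Counts of genes called kept within 1.5 times their main value under every setting in the drug comparisons: 28 against water (19 to 26 with 1 library left out) and 30 against c-Rel-deficient cells (24 to 30). For WT aTregs against rTregs the 4 calls became 2 without a filter on low values, 2 with a filter of 3 RPKM, 0 with only the groups compared, 6 without both aTreg libraries numbered 3 (a setting chosen after values of sort markers were seen), and 1 to 14 with 1 library left out. In p65-deficient cells the 1 call became 3 with only the groups compared and 0 with any of its libraries left out. Calls over all genes moved with the settings too. In the main fit WT aTregs against rTregs had 803 higher and 499 lower. They had 202 and 6 with only the groups compared, and 1168 and 1031 without both libraries numbered 3. In p65-deficient cells 297 higher and 41 lower became 865 and 585 with only the groups compared. The replicate numbers were not taken as pairs. Deviations of same-numbered libraries correlated at -0.07 to 0.40 in the stimulated set and -0.49 to 0.44 in the sorted set. With the number as a replicate block, c-Rel-deficient aTregs against rTregs gave 3 calls in place of 0 (Asns 1.23, Trib3 -1.31 and Cars -0.68). Over all 10656 genes the block called 703 higher and 198 lower there, against 0 and 0 in the main fit. The filter let Asns in through the aTregs alone. No other count left that range with the block. All other comparisons stayed at 0 calls under every setting, including each library left out. No difference reversed its sign while called. With 2 libraries in most groups and unknown depth in the sorted set, small differences and the low values of Asns, Sesn2 and Trib3 there are imprecise. Where a group was left with 1 library, that library was assumed to vary like the others.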
